A study of Mus musculus with 146 samples.

Results

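The genes described here were the B-type cyclins Ccnb1, Ccnb2 and Ccnb3, the cyclin Ccno, the kinase gene Cdk1, the Aurora kinases Aurka, Aurkb and Aurkc, and 2 genes of the anaphase-promoting complex or cyclosome (APC/C), the ubiquitin-conjugating enzyme Ube2c and the activator Cdc20. These 10 genes were taken by symbol from 52605 gene symbols, and they were chosen by name with their levels in these cells already known, so their levels below are a description. The cells were single germ cells from ovaries of newborn (P0.5, day 0.5) female C57/BL6J pups of the same litter, with no treatment and no other genotype. They were picked by mouth pipette, and their cDNA had been screened by PCR for Vasa (Ddx4) and against Foxl2 before sequencing. Of 146 libraries, all but 1 had at least 1 TPM of Ddx4 and were used. Ddx4 was at 7.49 and 18.3 TPM in the lowest cells used and at 0 in the library left out. No label ties a cell to an animal, so the cells counted as 1 sample, and no test across cells was made.

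B-type cyclins bind the kinase CDK1, and the active pair drives a cell into M phase of mitosis or meiosis. The APC/C ends M phase by marking B-type cyclins and securin for destruction. CDC20 brings these substrates to the complex and UBE2C supplies the first ubiquitin. Aurora A acts at spindle poles and Aurora B in the chromosomal passenger complex at centromeres, while Aurora C is best known from germ cells. Around birth, mouse oocytes enter a long arrest in meiotic prophase, so that the M phase roles given above come later, when meiosis resumes.

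Before the levels are given, 7 pairs of libraries need naming, all in cluster 2. Within a pair, log2(TPM + 1) over coding genes had a Pearson r across genes of 0.989 to 0.996, whereas no other 2 libraries passed 0.767 and the median was 0.513. The chi-square of their reads over genes was 1.60 to 4.32 per degree of freedom, against at least 187 in the 10 next closest pairs. The labels name 14 separate samples, but since these pairs stood so far from all others, each was taken as 1 cell, and the 95 libraries of cluster 2 then stand for 88 distinct cells. Below, each library is counted as a cell, and values with each pair counted once, as its mean TPM, are given beside some results of cluster 2. Of its 10 medians, that of Aurka alone moved by over 1.5 times. Counted once and clustered again, the 3 clusters held the same cells, and each of the 27 ratios between clusters (the 9 genes above the minimum level in 3 comparisons) kept its call and sign and moved by at most 0.117 on the log2 scale. The share of cells with a gene moved by at most 1.26 percentage points over all cells and 1.84 in cluster 2, and the rho between 2 of the genes by at most 0.036 over all cells and 0.062 in cluster 2.

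Libraries held from 4074810 to 26855300 estimated reads of genes, with a median of 9498860. Of 5 germ cell markers, Ddx4, whose minimum the rule had set, Dazl and Sycp3 reached 1 TPM in all cells used, whereas Mael and Tex101 were below it in 2 and 12 cells. Each of 9 pregranulosa markers reached 1 TPM in 1 to 10 cells, with Foxl2, the defining one, in 5, and their summed TPM ran up to 64.2, 82.1 and 13.7 in clusters 1, 2 and 3. Of 7 stromal markers, Tcf21 reached 1 TPM in 0 cells and Nr2f2 in 52 cells, with the others in 4 to 14, and their summed TPM ran up to 294, 873 and 38.3. The median sum of both lists was at most 4.35 TPM in each cluster. Of 8 blood and endothelial markers, Hbb-bs and Hbb-bt reached 1 TPM in 91 and 42 cells, Hba-a1 and Hba-a2 were below it in 42 cells each, and the other 4 reached it in 2 to 15 cells. The part of these transcripts in the results was not tested. Globin transcripts exceeded 10000 TPM in 11 cells, which were 1, 6 and 4 cells of clusters 1, 2 and 3. Without these 11 cells, each of the 27 ratios kept its call and sign. The clusters were rebuilt from 20 feature genes, none of which is described here, and held 19, 95 and 31 cells. The cells kept and the cluster sizes are not those of the study, and a difference from it may come from this rebuilding. Cluster 1 had the highest median of the meiotic gene Sycp2 (463 TPM, against 139.2 and 30.4 in clusters 2 and 3), and cluster 3 that of the zona pellucida gene Zp3 (442 TPM, against 0 and 0). Both genes were among those that made the clusters. The median of spike-in transcripts was 10423 TPM for cluster 1, 12182 for cluster 2 and 6375 for cluster 3, so the median cell of cluster 3 gave more endogenous RNA per unit of spike-in, and its TPM are shares of a larger total.

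Promoter sequences from RefSeq (GRCm38.p6), which cover 250 bases before and 50 bases after the transcription start, were matched for 9 of the 10 genes, without Aurkb. They were searched on both strands for the cell cycle genes homology region, CHR (TTTGAA or TTTAAA), and for the CCAAT box (CCAAT), which are known from promoters of genes active in late cell cycle phases. CHR letters were found in 7 of the 9 promoters and in 27.6% of 32851 promoters of the same length. CCAAT was found in 7 of the 9 and in 37.4% of all promoters. The 9 genes were chosen by name from the kind of genes in which these motifs are known, so nothing is read from these shares. The promoters of Ccnb1, Ccnb2 and Ccnb3 are shown because these related cyclins differed in direction across the cells, and those of Ccno and Ube2c because these genes were at least 75.7 and 345 TPM in each cell of cluster 3. Capitals mark CHR and CCAAT matches on either strand, in the 5′ to 3′ direction of the gene.
Ccnb1 (chr13:100786437-100786736, minus strand): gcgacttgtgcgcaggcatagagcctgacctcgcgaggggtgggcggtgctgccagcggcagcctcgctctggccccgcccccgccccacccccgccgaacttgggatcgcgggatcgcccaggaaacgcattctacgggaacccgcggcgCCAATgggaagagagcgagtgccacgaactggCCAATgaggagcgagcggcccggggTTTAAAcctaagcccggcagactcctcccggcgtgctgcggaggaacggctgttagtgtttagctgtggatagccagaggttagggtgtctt
Ccnb2 (chr9:70421505-70421804, minus strand): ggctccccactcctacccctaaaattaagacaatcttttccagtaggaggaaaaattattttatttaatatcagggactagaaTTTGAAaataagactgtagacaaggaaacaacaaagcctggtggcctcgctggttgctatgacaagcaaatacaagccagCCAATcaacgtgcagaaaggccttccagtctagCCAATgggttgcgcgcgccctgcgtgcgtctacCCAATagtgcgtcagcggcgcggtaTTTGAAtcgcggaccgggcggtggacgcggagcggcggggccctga
Ccnb3 (chrX:7041570-7041869, minus strand): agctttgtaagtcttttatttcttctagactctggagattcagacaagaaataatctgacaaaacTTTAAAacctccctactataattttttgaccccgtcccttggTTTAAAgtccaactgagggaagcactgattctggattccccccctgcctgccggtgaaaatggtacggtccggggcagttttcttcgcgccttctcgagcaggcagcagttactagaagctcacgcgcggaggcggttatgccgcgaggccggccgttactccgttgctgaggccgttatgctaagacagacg
Ccno (chr13:112987552-112987851, plus strand): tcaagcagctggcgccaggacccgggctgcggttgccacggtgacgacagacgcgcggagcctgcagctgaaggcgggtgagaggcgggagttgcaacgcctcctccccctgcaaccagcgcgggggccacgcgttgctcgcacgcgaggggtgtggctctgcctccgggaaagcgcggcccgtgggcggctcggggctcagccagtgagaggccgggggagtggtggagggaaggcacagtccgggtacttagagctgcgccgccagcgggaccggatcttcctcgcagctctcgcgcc
Ube2c (chr2:164769679-164769978, plus strand): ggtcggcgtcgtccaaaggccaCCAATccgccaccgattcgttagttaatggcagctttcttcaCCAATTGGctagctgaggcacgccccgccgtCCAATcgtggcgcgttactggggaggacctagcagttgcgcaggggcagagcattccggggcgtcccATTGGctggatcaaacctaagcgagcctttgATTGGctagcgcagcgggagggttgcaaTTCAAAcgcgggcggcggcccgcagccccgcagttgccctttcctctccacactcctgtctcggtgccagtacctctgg

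In the Ccnb1 promoter, CCAAT began at positions -99 and -67 and a CHR match at -42, counted from the transcription start. Ccnb2 had CCAAT at -87, -54 and -21 and CHR letters at -167 and 5. In Ccnb3, CHR letters began at -185 and -143, and CCAAT was not in the window. Ccno held neither motif, and its promoter was the richest in G and C of the 9, at 72% against a median of 52.7% over all promoters. Ube2c held 6 CCAAT matches, of which those at -186 and -183 overlapped each other on opposite strands, and 1 CHR match at -29. Of the promoters not printed, those of Cdk1, Aurka and Cdc20 held both motifs, and that of Aurkc held CCAAT alone. An E-box (CANNTG) was in 6 of the 9 promoters and in 72.3% of all, and 1 E-box of Ube2c overlapped its paired CCAAT. The NOBOX-type letters TAATTG were in none of the 9 and in 8.0% of all promoters. Likewise, none of the 9 held the E-box CACGTG, found in 7.15% of all, or a TATA box (TATAAA), found in 13.6%. A match is a description of letters and does not show binding.

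Levels are given in TPM as deposited, which divides the reads of a gene by its length and by the total of the cell. By median over all cells, the order was Ube2c (249.9 TPM), Ccno (141.3 TPM), Cdk1 (51.74 TPM), Ccnb2 (51.64 TPM), Cdc20 (51.03 TPM), Ccnb1 (43 TPM), Ccnb3 (15.7 TPM) and Aurka (14.3 TPM), with Aurkb and Aurkc at 0. Over all cells pooled, each neighbouring pair in this order had overlapping interquartile ranges. This overlap cannot show that neighbours were alike, since it mixes the clusters and the genes were measured in the same cells. For Ube2c and Ccno, the interquartile ranges overlapped in cluster 2 but were apart in cluster 3, at 1330 to 1735 TPM and 149.3 to 345.5 TPM. In cluster 1, the median of Ube2c was 142.8 TPM and the highest Ccno was 0.408 TPM. Differences between neighbours within cells were not tested. Part of the order rests on the length taken for each gene. When reads were divided by the longest coding transcript of each gene in GENCODE M21, Ccno (111.9 CPM per kilobase) came before Ube2c (72.4), and Cdk1 moved from the third to the eighth place at 11.4. The effective length that TPM and reads imply was 1072 bases for Cdk1 and 719.6 bases for Ube2c (medians over cells with at least 10 reads), against longest coding transcripts of 4375 and 2191 bases. Comparisons of 1 gene between cells are not changed by a fixed length.

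**Figure D1:**
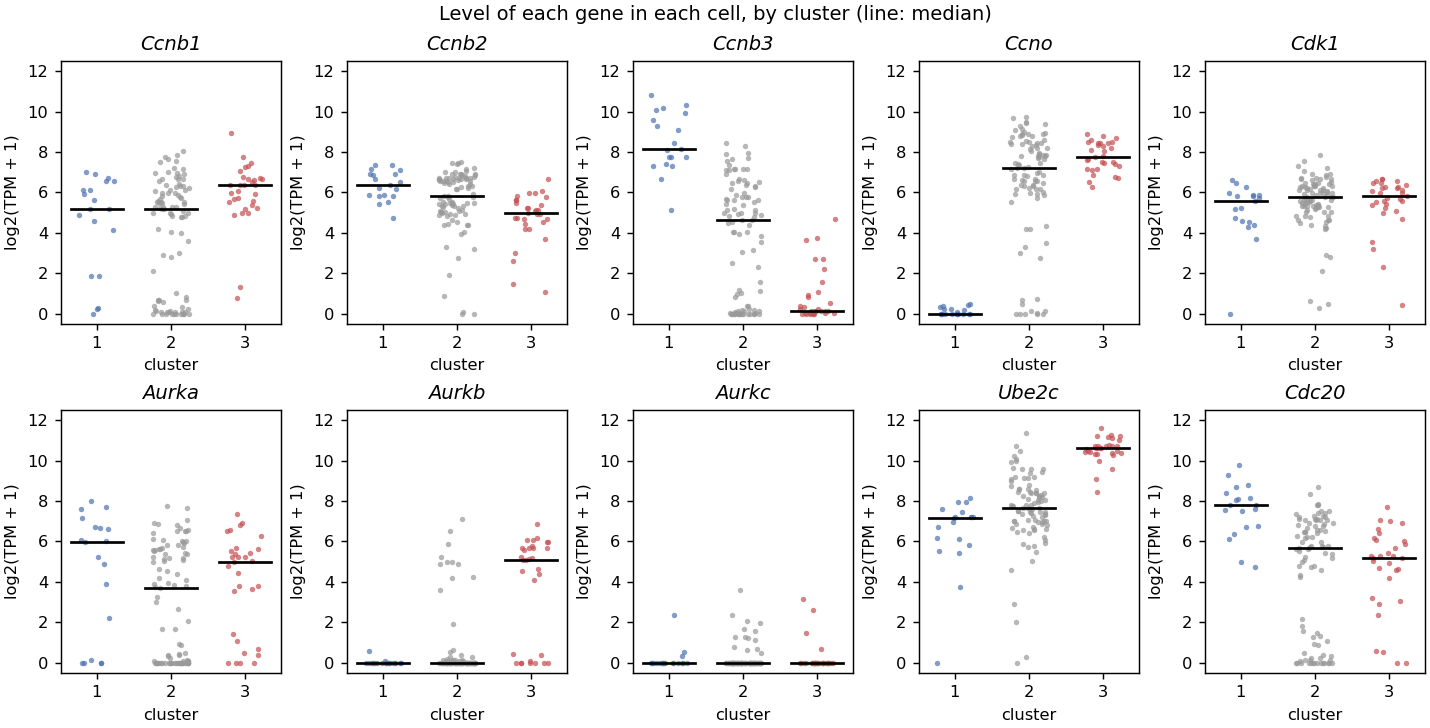
Level of each of the 10 genes as log2(TPM + 1) in each cell, in cluster 1 (19 cells, blue), cluster 2 (95 cells, grey) and cluster 3 (31 cells, red), with the median as a line. Ccnb3 sits high in cluster 1 and near 0 in cluster 3, Ccno is near 0 in cluster 1, Ube2c is highest in cluster 3, Aurkb is near 0 outside cluster 3 in most cells, and Cdk1 has medians of 46.6, 53.9 and 55.8 TPM.

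Ccnb3 (chromosome X, 6979652 to 7041619, minus strand, GRCm38, 14 exons) encodes a B-type cyclin known for its part in the metaphase to anaphase transition of the first meiotic division. It was between 33.6 and 1833 TPM in cluster 1, with a median of 278. In cluster 2 it was between 0 and 349 TPM, with a median of 23.8, and in cluster 3 between 0 and 24.5 TPM, with a median of 0.101. Thus every cell of cluster 1 was above every cell of cluster 3, whereas cluster 2 overlapped both. The log2 ratio of the mean TPM, with 1 added to each mean, was -3.40 for cluster 2 over cluster 1 and -4.01 for cluster 3 over cluster 2. As differences of mean log2 values these were -4.68 and -2.94, and the second was -3.17 with clusters from 2000 variable genes. Across all cells, 75.2% had at least 0.1 TPM of Ccnb3 and 36 cells had less (95% Clopper-Pearson interval 67.3 to 81.97%). Intervals of this kind cover counting error only.

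Ccnb2 (chromosome 9, 70407692 to 70421547, minus strand, 9 exons) encodes one of the widely expressed B-type cyclins. It was at or above 0.1 TPM in all but 3 cells, with the smallest SD over cells among the B-type cyclins (43.96 TPM, against 65.9 for Ccnb1 and 254 for Ccnb3). Its TPM ran from 25.5 to 165 in cluster 1 (median 81.6), from 0 to 183 in cluster 2 (median 54.7) and from 1.08 to 101.5 in cluster 3 (median 29.99). All clusters overlapped, and the median was lowest in cluster 3. Cluster 2 over cluster 1 had a log2 ratio of -0.41, and cluster 3 over cluster 2 one of -0.98. The second value depends on the scaling, since it was 0.06 after division by spike-in TPM, a scale on which the median of all genes was 0.63. For cluster 3 over cluster 1 the ratio was -1.40, and fell below 1.5-fold at -0.56 on that scale. The first value passed 1.5-fold at -0.62 on it, and at -0.77 as a difference of mean log2 values.

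Ccnb1 (chromosome 13, 100778650 to 100786570, minus strand, 9 exons), whose product is the main partner of CDK1 at entry into M phase, went the other way. It ran from 0 to 126.4 TPM in cluster 1 (median 35.3), from 0 to 267 TPM in cluster 2 (median 35.7) and from 0.688 to 484 TPM in cluster 3 (median 80.2). All 3 clusters overlapped, and cells near 0 were found mainly in cluster 2, where 18 of 95 cells had less than 0.1 TPM. The log2 ratio was 0.03 for cluster 2 over cluster 1 and 0.86 for cluster 3 over cluster 2. The latter was 0.64 without the cell at 484 TPM. With clusters from 2000 variable genes the first ratio passed 1.5-fold at 0.95 and the second fell below it at 0.45.

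Cdk1 (chromosome 10, 69335146 to 69352938, minus strand), the catalytic partner of these cyclins, was called in no comparison of TPM. Medians of 46.6, 53.9 and 55.8 TPM were found for clusters 1 to 3, with ranges of 0 to 95.8, 0.204 to 227 and 0.324 to 101.8 TPM. It was below 0.1 TPM in 1 cell. The log2 ratios were 0.43, -0.10 and 0.33 for cluster 2 over 1, 3 over 2 and 3 over 1. With spike-in scaling the direction of the second ratio turned, at 1.00, and the third passed 1.5-fold at 1.21. CPM gave 0.13 for the second and 0.59, past 1.5-fold, for the third.

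Ccno (chromosome 13, 112987802 to 112990777, plus strand, 3 exons) encodes cyclin O, best known for centriole formation in multiciliated cells. In cluster 1 its TPM ran from 0 to 0.408, with a median of 0. It ran from 0 to 841 TPM in cluster 2 (median 146) and from 75.7 to 476 TPM in cluster 3 (median 216). At 0.1 TPM or more, 7 of 19 cells of cluster 1 had Ccno. At 1 TPM or more, 0 of 19 cells had it, which allows a share of up to 15.8% (3 of 19 cells), against 84 of 95 in cluster 2 and 31 of 31 in cluster 3. The log2 ratio was 7.61 for cluster 2 over cluster 1 and 0.19 for cluster 3 over cluster 2. The latter was 1.30 as a difference of mean log2 values and 1.01 with spike-in scaling, and turned to -0.47 with clusters from 2000 variable genes. The former was 2.10 with those clusters and 5.35 with Ward clusters. Cluster 3 over cluster 1 had a ratio of 7.80, against 1.63 with clusters from 2000 variable genes and 5.6 with Ward clusters. Ratios with 1 TPM added understate a difference from a level near 0.

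Within cluster 2, 11 of 95 cells were below 1 TPM of Ccno. Their median of Ccnb3 was 120 TPM, against 17.8 TPM in the 84 cells with Ccno, and their median of Ube2c was 111.05 TPM, against 231 TPM. Depth was alike, with medians of 8840120 and 9053820 reads. Most of the 11 cells lay early in the order of cells described below, along which these genes also differed. The part of this position in the contrast was not tested. In all, 64 cells had at least 1 TPM of both Ccno and Ccnb3, or 59 cells with each pair of near-identical libraries counted once. On that count, 9 of 88 cells of cluster 2 were below 1 TPM of Ccno, with a median Ccnb3 of 119.7 TPM against 15.3 TPM in the other 79.

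Aurka (chromosome 2, 172356190 to 172370535, minus strand, 9 exons), which encodes the Aurora kinase of spindle poles, was at or above 0.1 TPM in 71.7% of the cells and below it in 41 cells. Its TPM ran from 0 to 256 in cluster 1 (median 61.2), from 0 to 212 in cluster 2 (median 11.9) and from 0 to 164 in cluster 3 (median 30.3). The clusters overlapped over most of their range. With near-identical libraries counted once, the median in cluster 2 was 7.70 TPM. Its log2 ratio stood at -1.24 for cluster 2 over cluster 1, 0.30 for cluster 3 over cluster 2 and -0.94 for cluster 3 over cluster 1. With spike-in scaling the last turned to 0.21, and it fell below 1.5-fold at -0.54 as a difference of mean log2 values. The middle ratio passed 1.5-fold at 1.45 and 0.93 on these scales. With clusters from 2000 variable genes the 3 ratios were -0.15, -0.32 and -0.47, none past 1.5-fold. The cells with Aurka had a median of 9762050 reads and the other 41 cells 8625660, and the part of depth in this difference was not tested.

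Aurkb (chromosome 11, 69045647 to 69051664, plus strand, 8 exons), the kinase of the chromosomal passenger complex, was detected in 42 cells (28.97%, interval 21.7 to 37.1%). By cluster, 1 of 19 cells, 18 of 95 cells and 23 of 31 cells had at least 0.1 TPM. Its highest level was 0.502, 136.7 and 114.8 TPM in clusters 1, 2 and 3, and its median was 0, 0 and 32.6 TPM. Hence cluster 3 held 23 of the 42 cells with Aurkb, but 8 of its 31 cells were without it and the highest single cell was in cluster 2. On the log2 scale the ratio was 2.58 for cluster 2 over cluster 1 and 2.43 for cluster 3 over cluster 2. Without the cell at 136.7 TPM these were 2.21 and 2.80. The first value was 0.61 as a difference of mean log2 values and 0.99 with clusters from 2000 variable genes. Counted once, 16 of 88 cells of cluster 2 had Aurkb.

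Depth and content moved with Aurkb. The cells with Aurkb had a median of 10723600 reads, against 9040820 in those without. After each cell was thinned to 1000000 reads, at least 1 read of Aurkb remained in 33 cells (22.8%), of which 0, 12 and 21 were in clusters 1, 2 and 3. Within cluster 2, the 18 cells with Aurkb had a median Ube2c of 350 TPM, against 184 TPM in the 77 cells without it. The part of depth in these differences was not tested beyond the thinning.

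Aurkc (chromosome 7, 6995300 to 7003091, plus strand, 7 exons) was the lowest of the 10 genes, with at least 0.1 TPM in 21 cells (14.5%, interval 9.19 to 21.3%) and a highest level of 11.3 TPM. These cells were 3, 14 and 4 in clusters 1, 2 and 3. Its mean of 0.368 TPM was under the minimum of 1 TPM set for ratios, so 9 genes were compared between clusters. GENCODE M21 lists 10 pseudogenes with 93.3 to 99.2% identity to Aurkc transcripts, and none has a row in the deposited files, so reads from such copies could be counted as Aurkc. The same holds for 4 copies of Ccnb1, 2 of Ube2c and 1 of Cdc20, and the levels of these 4 genes carry that uncertainty.

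Ube2c (chromosome 2, 164769898 to 164778822, plus strand, 6 exons) had the highest level in cluster 3 of the 10 genes. Its TPM ran from 0 to 282 in cluster 1 (median 142.8), from 0 to 2601 in cluster 2 (median 203) and from 345 to 3158 in cluster 3 (median 1567). Every cell of cluster 3 was above every cell of cluster 1, and cluster 2 overlapped both. Between neighbouring clusters the log2 ratio was 1.40 for cluster 2 over cluster 1 and 2.26 for cluster 3 over cluster 2. The second was 3.13 with spike-in scaling and 2.96 as a difference of mean log2 values. Tnnc2 overlaps Ube2c by 1662 bases on the opposite strand, and reached 1 TPM in 4 cells, of which 0 were in cluster 3. The part of this overlap in the level of Ube2c was not tested.

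Cdc20 (chromosome 4, 118432901 to 118437352, minus strand, 10 exons), the activator of the same complex, was highest in cluster 1. There it ran from 25.5 to 877 TPM, with a median of 223. It ran from 0 to 413 TPM in cluster 2 (median 49.3) and from 0 to 207 TPM in cluster 3 (median 35.7). The clusters overlapped, with 19 of 19, 78 of 95 and 29 of 31 cells at 0.1 TPM or more. The log2 ratio was -1.90 for cluster 2 over cluster 1 and -0.52 for cluster 3 over cluster 2, which passed 1.5-fold with CPM at -0.60 and with clusters from 2000 variable genes at -1.18. The first ratio was -0.59 with those clusters. The direction of the second depends on the scale, since it was 0.41 with spike-in scaling and 0.25 as a difference of mean log2 values. Ube2c and Cdc20, which act in 1 step, differed in opposite directions between clusters 1 and 3, with log2 ratios of 3.66 and -2.42. Elovl1, which overlaps Cdc20 by 53 bases on the opposite strand, reached 1 TPM in 31 cells.

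A gene was called where the ratio of means was at least 1.5-fold, and the share of all 11747 coding genes called the same way is given as the background. For cluster 2 over cluster 1, 3 of the 9 genes (Ccno, Aurkb and Ube2c) were called higher, against a background of 25.2%. Another 3 (Ccnb3, Aurka and Cdc20) were called lower, against 21.1%. For cluster 3 over cluster 2, Ccnb1, Aurkb and Ube2c were called higher (background 16.3%) and Ccnb2 and Ccnb3 lower (31.6%). For cluster 3 over cluster 1, 4 were higher (Ccnb1, Ccno, Aurkb and Ube2c, background 26.7%) and 4 lower (Ccnb2, Ccnb3, Aurka and Cdc20, background 36.6%). Since the genes were chosen with these levels known, nothing is read from their shares. Every cell of cluster 3 was higher than every cell of cluster 1 for 2 of the 9 genes (Ccno and Ube2c, background 0.238%), and every cell lower for 1 (Ccnb3, background 0.0341%). The median log2 ratio of all genes was 0.01, -0.24 and -0.19 for cluster 2 over 1, 3 over 2 and 3 over 1.

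**Figure D2:**
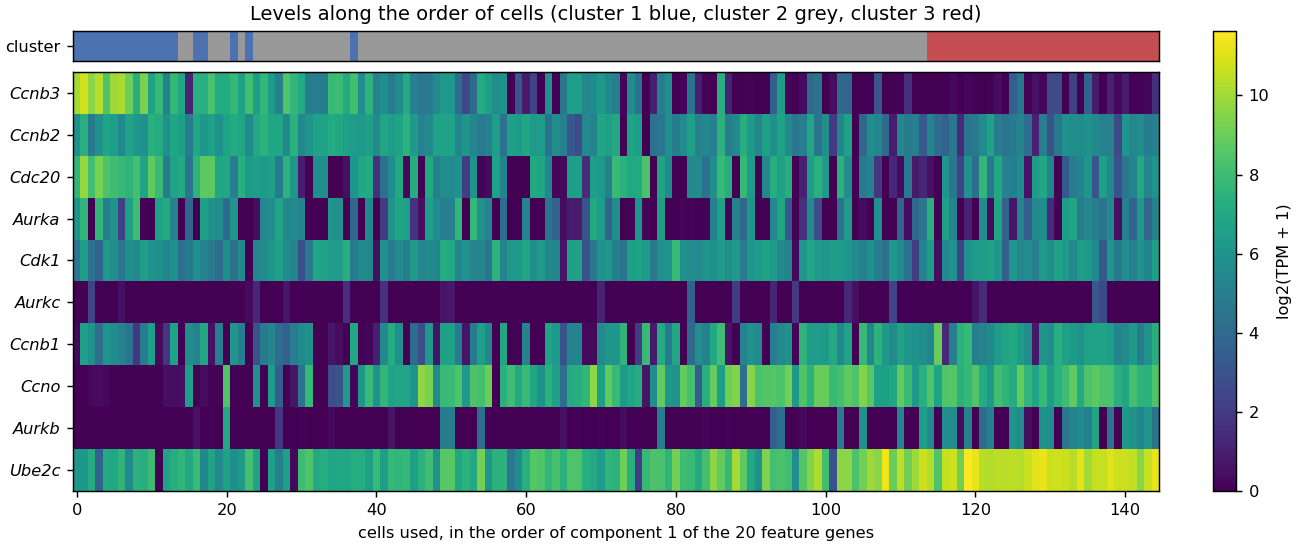
Levels of the 10 genes (rows, colour scale log2(TPM + 1)) in all cells used, placed in the order of component 1 of the 20 feature genes, with the cluster of each cell in the top strip. Ccnb3 and Cdc20 are brightest at the start of the order, Ccno is dark at the start, Ube2c is brightest toward the end, and Aurkb appears mainly in the cells of cluster 3.

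The cells were also placed in an order by component 1 of the feature genes, which held 36.3% of their variance, and cut into 5 equal bins of 29 cells. Each library is counted as a cell here. Bins 2 and 3 held both libraries of some near-identical pairs, and values of bins with each pair counted once are not given. The mean of Ccnb3 was 403 TPM in bin 1, 87.4 in bin 2, 29.4 in bin 3, 5.998 in bin 4 and 2.40 in bin 5. Bin 4 had a median of 0.0465 TPM, and a mean of 3.10 TPM without its highest cell at 87.2 TPM. Ccno went from 20.8 TPM in bin 1 to 171 in bin 2 and was highest in bin 4, at 328 TPM. The median of bin 1 was 0.0491 TPM, and its mean 8.84 TPM without the cell at 357 TPM. Ube2c was at 111.3, 185, 261, 674 and 1663 TPM in bins 1 to 5. As a difference in mean TPM, the largest step between neighbouring bins was from bin 1 to bin 2 for Ccnb3 and Ccno and from bin 4 to bin 5 for Ube2c. As a ratio of means, the largest step of Ccnb3 and of Ube2c was from bin 3 to bin 4. Without the cell at 2601 TPM, the mean of Ube2c in bin 4 was 605 TPM, which put its largest ratio from bin 4 to bin 5. For Ccno the largest difference in TPM depends on the measure and on 1 cell. By median, its largest step was from bin 3 (142.2 TPM) to bin 4 (343.6 TPM). Without the cell at 841 TPM, the mean of bin 2 was 147.2 TPM, which also put the largest step of Ccno from bin 3 to bin 4. In the order from 2000 variable genes, Ube2c was at 272, 976 and 1373 TPM in bins 3 to 5, so that its largest step was from bin 3 to bin 4. Ccnb3 was at 10.6 and 1.37 TPM in bins 4 and 5 of that order, and Ccno at 5.81 TPM in bin 1.

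The means of the other genes spanned fewer TPM. Ccnb2 was highest in bin 1 at 94.1 TPM and lowest in bin 5 at 34.2. Ccnb1 was at 34.9 TPM in bin 1 and at 80.5 and 79.4 in bins 4 and 5. Cdc20 stood out in bin 1 at 217 TPM, and was between 47.7 and 76.5 TPM in the other bins. Aurkb was at or below 9.99 TPM in bins 1 to 4 and at 32.8 TPM in bin 5. The means of Aurkb in bins 1, 2 and 3 (4.83, 2.65 and 1.08 TPM) were 0.12, 1.67 and 0.038 TPM without the highest library of each. In bin 2 the library left out (30.2 TPM) has a near-identical one at 28.7 TPM, which stayed in that mean. Aurka had its lowest mean in bin 3, at 22.7 TPM, between 60.1 in bin 1 and 34.1 in bin 5. In the order from 2000 variable genes, Aurka was lowest in bin 5 at 21.7 TPM, and Cdc20 was at 28.2 TPM in bin 5. Aurkb was at 0.0286, 5.42, 4.12, 18.1 and 23.7 TPM in bins 1 to 5 of that order. Ccnb1 in bin 2 was at 25.2 TPM in that order, against 38.5 TPM in the order of the feature genes.

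Over all cells, the rho (Spearman) between TPM and this order reached 0.79 for Ube2c, 0.61 for Ccno, 0.47 for Aurkb and 0.37 for Ccnb1. It was -0.77 for Ccnb3, -0.54 for Ccnb2 and -0.34 for Cdc20. Cdk1, Aurka and Aurkc were at 0.11, -0.09 and 0.02. The order itself had a rho of 0.23 with reads per cell, 0.34 with the number of genes detected and -0.32 with spike-in TPM, so depth and RNA content moved along with it, and their part was not tested. With reads per cell, rho was highest for Aurkb (0.37) and Ube2c (0.36). The cells are of 1 sample and share these technical measures, so no p-value is given.

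**Figure D3:**
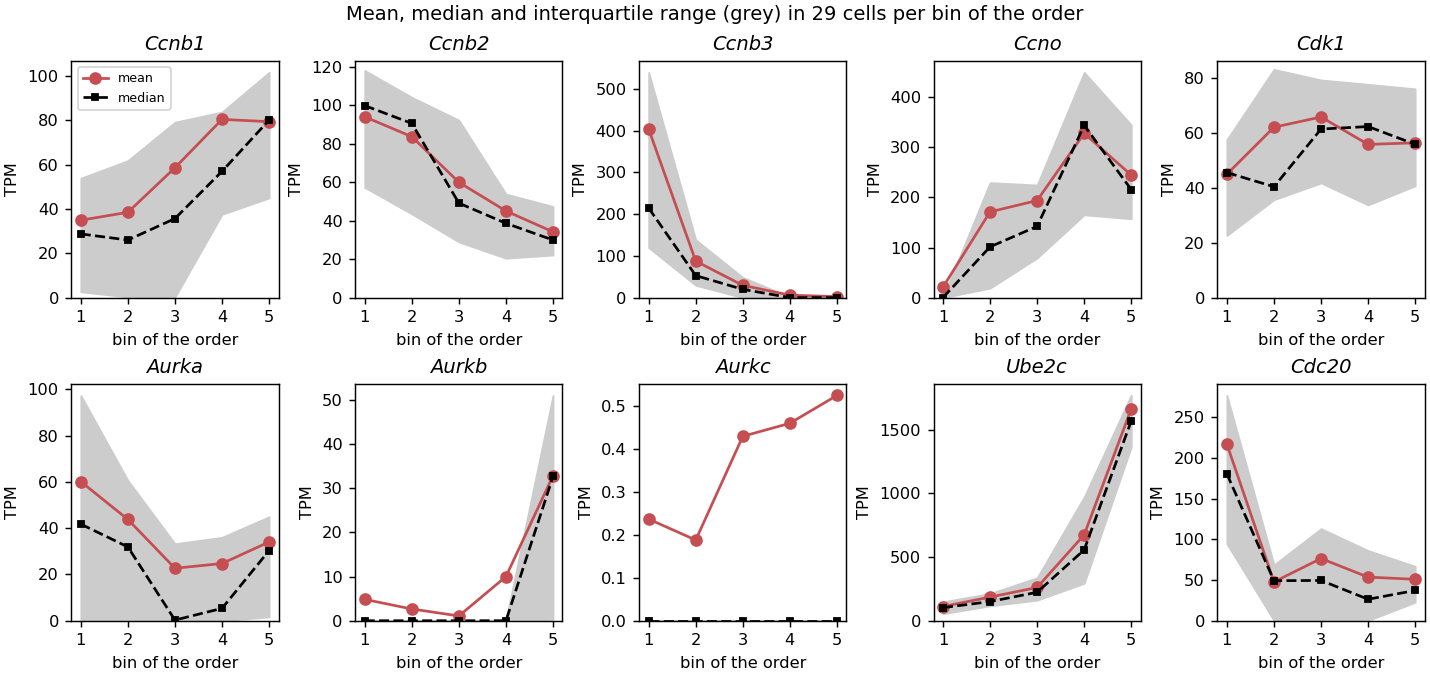
Mean (red), median (black dashes) and interquartile range (grey) of the TPM of each gene in 5 equal bins of 29 cells along the order, each panel with its own TPM axis starting at 0. The mean of Ccnb3 is 403 TPM in bin 1 and 2.40 in bin 5, and that of Ube2c is 111.3 TPM in bin 1 and 1663 in bin 5.

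As related cyclins differed in direction, their shares of the summed B-type cyclin TPM were computed in each cell with a sum of at least 1 TPM, which left out 1 cell. The median share of Ccnb3 was 67.8%, 17.9% and 0.167% in clusters 1, 2 and 3. The share of Ccnb1 had medians of 4.32%, 22.0% and 67.2%, and that of Ccnb2 of 16.8%, 43.8% and 31.4%. Ccnb3 was the highest of the 3 in 17 of 19 cells of cluster 1, Ccnb2 in 48 of 94 cells of cluster 2 (45 of 87 with near-identical libraries counted once), and Ccnb1 in 25 of 31 cells of cluster 3. The median sum was 486, 145.6 and 120.1 TPM. A share within a cell is not touched by spike-in scaling, though it depends on the lengths used for each gene.

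Among the Aurora kinases, a sum of at least 1 TPM was found in 15, 60 and 26 cells of clusters 1, 2 and 3. Aurka was the highest of the 3 in 14, 50 and 14 of these cells. Aurkb was so in 0, 5 and 12 cells, and Aurkc in 1, 5 and 0 cells. In cluster 3, the median share was 58.3% for Aurka and 41.7% for Aurkb. In clusters 1 and 2 the median share of Aurka was 100%.

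**Figure D4:**
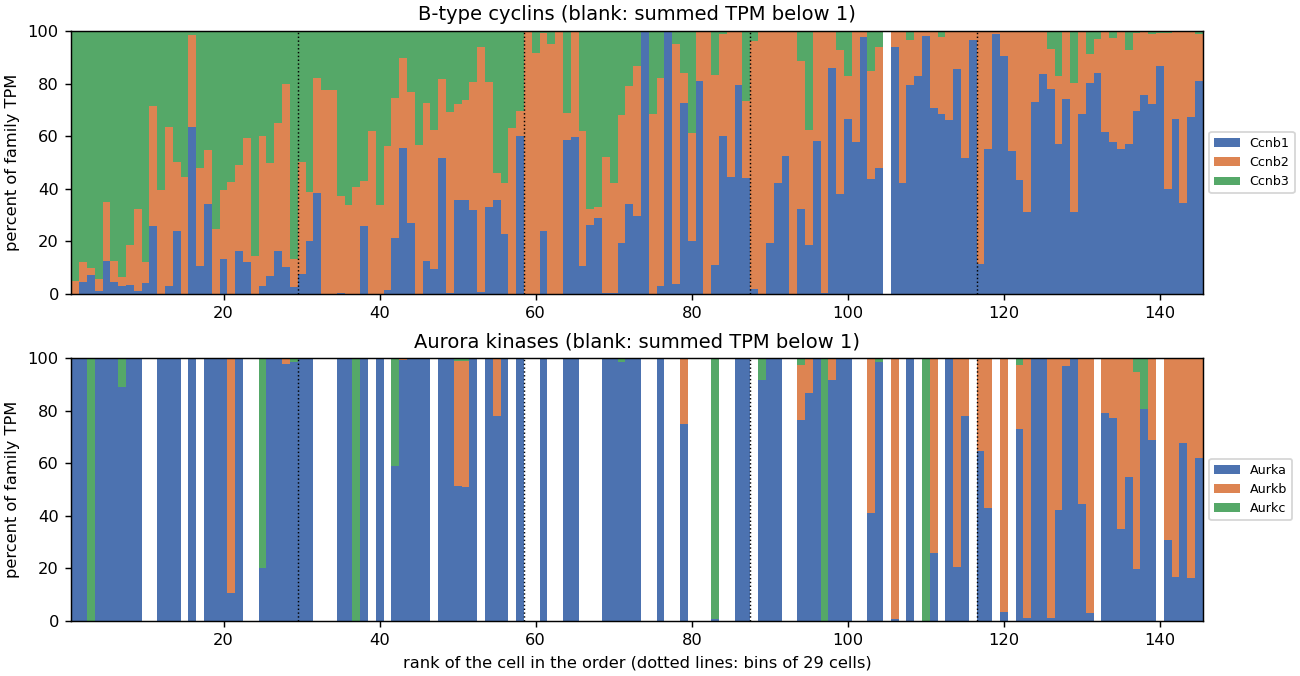
Share in percent of each B-type cyclin (top) and each Aurora kinase (bottom) in the summed TPM of its family, for each cell in the order of component 1, with cells whose sum is below 1 TPM left blank and dotted lines between the 5 bins. Ccnb3 takes most of the sum at the start and Ccnb1 at the end, and Aurkb takes a median of 41.7% in the 26 cells of cluster 3 that had a sum of 1 TPM or more.

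Pairs of these genes were compared across the cells by Spearman's rho. Ccnb2 and Ccnb3 had a rho of 0.51, Aurkb and Ube2c 0.50, Ccno and Ube2c 0.45, and Ccnb3 and Cdc20 0.44. Ccnb3 and Ube2c stood at -0.59, Ccnb3 and Ccno at -0.52, and Ccnb2 and Ube2c at -0.50. Within the 95 cells of cluster 2, Ccnb2 and Ccnb3 had 0.46 and Ccnb3 and Ube2c -0.44, while Aurkb and Ube2c had 0.23. Cdk1 had its highest rho, 0.24, with Ccnb2, and a rho of -0.02 with Ccnb1. These values share the depth and composition of each library.

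For each gene, the 3 other coding genes with the highest rho across the cells were found. For Ube2c they were Tmsb10 (0.81), Ldhb (0.78) and Gtsf1 (0.76). For Ccnb3 they were Maoa (0.73), Adad1 (0.71) and Dmrtc2 (0.71), and for Ccno they were Zbed3 (0.72), Gdpd1 (0.66) and Tmem14c (0.64). Psmb1 (0.68), Hspa5 (0.66) and Apex1 (0.63) were most like Ccnb2. Noto (0.63), Omt2b (0.58) and Padi6 (0.57) were most like Aurkb, with means in cluster 1, 2 and 3 of 0.361, 61.4 and 964 TPM for Padi6, a gene of the oocyte cytoplasmic lattices. The remaining genes had weaker neighbours. Cdc20 was most like Rtn3 (0.54), Hormad1 (0.47) and Strap (0.46), and Aurka most like Atp5b (0.49), Odc1 (0.48) and Gzf1 (0.45). For Ccnb1 they were Plat (0.45), Rhd (0.44) and Ptpn18 (0.44), and for Cdk1 they were Grpel1 (0.42), Mat2b (0.41) and Cks2 (0.40). Aurkc had no neighbour above 0.31, the value for Soat1, followed by Prkar1b (0.30) and Isoc2b (0.28). A weak rho in sparse counts is not a finding.

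Other genes of the same pathways were read from lists. Of 14 subunits of the APC/C itself, 3 were called higher and 5 lower in cluster 3 over cluster 1, against backgrounds of 26.7% and 36.6% of all genes, with a median log2 ratio of -0.30 beside -0.19 for all genes. The small subunit gene Cdc26 was higher (log2 ratio 1.15) and the cullin gene Anapc2 lower (-1.44). The most abundant subunit genes were Anapc11, with means of 222, 316 and 445 TPM in clusters 1, 2 and 3, Anapc5 (354, 322 and 186 TPM) and Anapc13 (143.8, 157 and 268 TPM). Of the 14, 6 were called in neither direction.

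Of 13 genes for other activators, ubiquitin enzymes, substrates and inhibitors of the APC/C, 4 were higher and 3 lower in cluster 3 over cluster 1 on the same backgrounds, with a median of -0.18. Pttg1, which encodes securin, had the largest ratio, 1.82, with means of 160.1, 126.5 and 568 TPM. Trip13, whose product takes checkpoint complexes apart, was the lowest at -1.77, with means of 89.5, 43.99 and 25.6 TPM. Ube2s, the ubiquitin chain-extending enzyme that works after UBE2C, was called in neither direction, with means of 430, 354 and 379 TPM, and neither was Mad2l1 (113.4, 87.8 and 91.1 TPM).

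Of 19 other cyclins above the minimum level, 2 were higher and 7 lower (backgrounds 26.7% and 36.6%), with a median of -0.45. The D-type cyclin Ccnd3 had the largest ratio (1.78, with means of 16.9, 26.98 and 60.8 TPM) and the E-type cyclin Ccne2 the lowest (-3.42, with means of 223, 78.05 and 19.9 TPM). Ccnh, of the CDK-activating kinase, was lower at -1.16, and Ccni was called in neither direction at 0.46.

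Among 18 regulators of CDK1, 9 were higher and 3 lower (backgrounds 26.7% and 36.6%), with a median of 0.65. Wee2, which encodes an oocyte kinase that inhibits CDK1, had the largest ratio, 5.39, with means of 0.0751, 14.4 and 43.9 TPM. Cdkn1c, an inhibitor of cyclin-dependent kinases, was the lowest at -1.72, with 77.7, 63.2 and 22.98 TPM. Cks2, a small CDK-binding protein gene, was at 129.8, 333 and 255 TPM, Arpp19, an inhibitor of the phosphatase that opposes CDK1, was at 287, 337 and 548 TPM, and Pkmyt1, a kinase that inhibits CDK1, was called in neither direction at -0.37.

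Partners of the Aurora kinases numbered 12, of which 4 were higher and 6 lower (backgrounds 26.7% and 36.6%), with a median of -0.26. The passenger complex gene Incenp was higher (1.22, with means of 25.5, 55.4 and 60.7 TPM), as was Birc5 (0.88, with 545, 711 and 1003 TPM), whose product survivin is in the same complex, while Cdca8 of that complex was called in neither direction at 0.15. Tacc3, a spindle partner of Aurora A, was higher at 0.78, and Ajuba, an activator of Aurora A, was lower at -3.30, with means of 135.5, 106.2 and 12.9 TPM.

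A list of 20 genes of proliferating cells had 2 called higher and 10 lower (backgrounds 26.7% and 36.6%), with a median of -0.56. Top2a was the lowest at -2.31, with means of 138.7, 20.1 and 27.1 TPM, and Tyms the highest at 3.34, with 12.04, 70.1 and 131.01 TPM. Mcm5 and Mcm6, of the replication helicase, were lower at -2.02 and -2.06, and Cenpf was called in neither direction at 0.04.

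**Figure D5:**
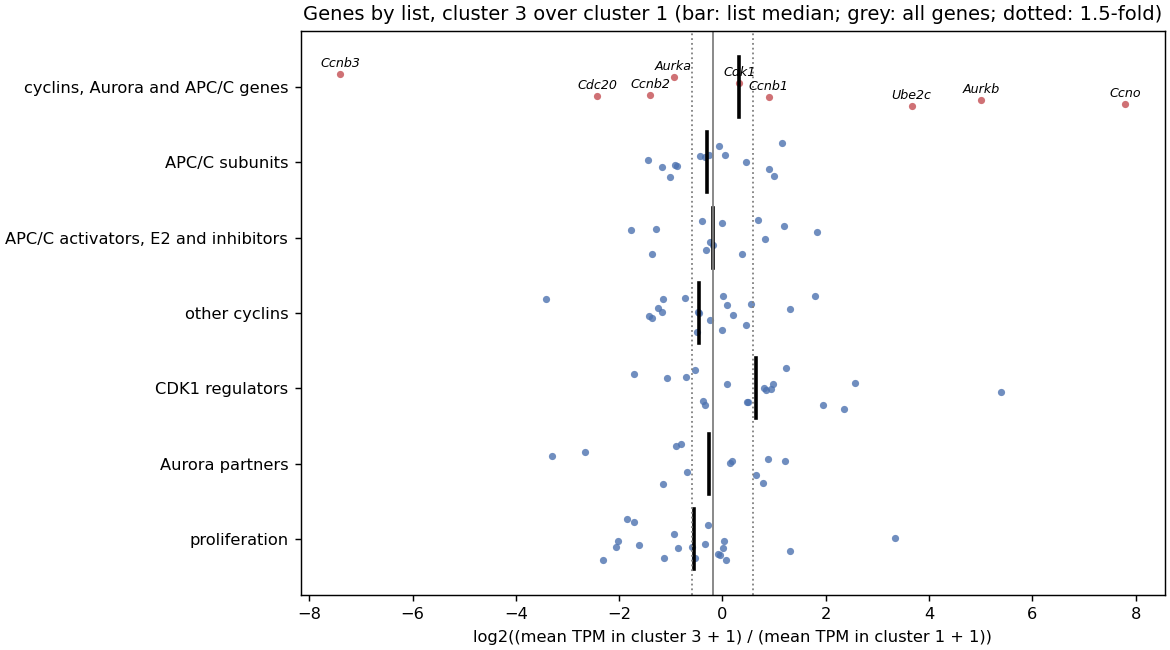
Log2 ratio of mean TPM in cluster 3 over cluster 1, with 1 TPM added to each mean, for 9 cyclin, Aurora and APC/C genes (red, named) and for the genes of 6 pathway lists (blue), with list medians as black bars, the median of all 11747 genes as a grey line and 1.5-fold as dotted lines. The red points run from -7.40 for Ccnb3 to 7.80 for Ccno, and the median of the CDK1 regulators is 0.65.

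TPM depends on the length by which reads are divided, so that length was worked out from reads over TPM in cells with at least 10 reads of a gene, scaled by the spike-ins, which have 1 sequence each. For Ccnb3 the implied effective length had a median of 4677 bases in 19 cells of cluster 1, 4673 bases in 68 cells of cluster 2 and 4763 bases in 14 cells of cluster 3, and the clusters overlapped. For Ccno the median was 1575 bases in cluster 2 and 1618 bases in cluster 3, and for Ube2c it was 713.2, 720.9 and 718.9 bases in clusters 1, 2 and 3. Ccnb1 ran from 298.8 to 2345 bases, with medians of 1543, 2076 and 2133 bases. Cdc20 had medians of 1298, 1465 and 1176 bases, and Cdk1 ran from 382 to 3197 bases. A change in this length alters TPM for the same reads, and the CPM values that leave length out gave Ccnb3 and Ccnb1 the same calls. With CPM, Cdk1 for cluster 3 over cluster 1 (0.59) and Cdc20 for cluster 3 over cluster 2 (-0.595) gained a call. The length columns of the deposited files were not used for this, because their median was below the shortest M21 transcript in 7 of the 10 genes. Their effective length was 0.50 of the implied one for Ube2c, 0.25 for Aurka and 1.00 for Ccnb2, which has 1 transcript.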

How the data were processed

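The series holds 146 Smart-seq2 libraries with ERCC spike-ins, each labelled as a separate sample. The authors quantified reads with Salmon against mm10 and the spike-ins. They deposited TPM, estimated counts that need not be whole, and lengths in bases per gene symbol. For those of the 10 genes with several transcripts, the median deposited effective length was below the one that TPM implies. The annotation release was not given in the sources used here. Clusters were rebuilt from TPM of 20 feature genes in Seurat 5.3.0 (R 4.3.3), with 10 components, 20 neighbours and a resolution of 0.2, and numbered along component 1. Ratios are log2((mean TPM + 1)/(mean TPM + 1)), and genes with a mean under 1 TPM were left out. All cells were treated as 1 sample, so there is no error between animals, and no test was made. Scripts were tested on simulated data. The genes and lists were chosen with earlier results of these data known. Named genes were the 10 genes, the 3 nearest neighbours by Spearman's rho of each gene detected in at least 10% of cells, and, of each pathway list, the 3 with the highest mean and the largest called ratio in each direction. For the Aurora partners Sgo1, Sgo2a and Haspin, older symbols in the files were matched through RefSeq synonyms. Coding genes were identified through GENCODE M21 and RefSeq. Alternatives were CPM from the estimated counts, spike-in scaling, mean log2 values, a pseudocount of 0.1, all 146 cells, Ward clusters, clusters from 2000 variable genes, no filter on low genes, and leaving out each cell in turn. Libraries whose log2(TPM + 1) correlated above 0.9 (7 pairs) were taken as repeats of 1 cell. In the main values each library still counted as a cell, and counting each pair once, as the mean TPM, was an alternative. This, leaving out cells with over 10000 TPM of globin, and dividing reads by GENCODE M21 lengths were added after seeing the data.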

Additional observations from a re-analysis of the deposited data

Results flagged for a closer look

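The library without Ddx4 was left out of the comparisons and held reads of some of these genes above the limit of 3 reads that a count of 0 allows. It had 48 reads of Aurka (79.8 TPM), 5 reads of Cdk1 (6.46 TPM) and 3.36 estimated reads of Ccnb1 (10.6 TPM), of 1408459 reads in all. Its summed TPM of pregranulosa markers, 89.6, was the highest of the 146 libraries, and that of germ cell markers, 1.64, the lowest. Ccnb2, Ccno, Aurkb, Aurkc and Cdc20 were at 0 in it. With the 146 cells clustered again, each of the 27 ratios kept its call.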

How the results depend on the processing

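Of 27 log2 ratios (9 genes in 3 comparisons), all kept their call with Ward clusters, with all 146 cells, with a pseudocount of 0.1 and with near-identical libraries counted once, 25 with CPM, 23 with mean log2 values, 22 with clusters from 2000 variable genes and 19 with spike-in scaling. No sign changed with Ward clusters, all 146 cells, a pseudocount of 0.1 or near-identical libraries counted once, against 1 sign with CPM (Cdk1 for cluster 3 over cluster 2, 0.13). With clusters from 2000 variable genes, Ccno (-0.47) and Aurka (-0.32) turned for cluster 3 over cluster 2, and with mean log2 values, Ccnb1 for cluster 2 over cluster 1 (-0.46) and Cdc20 for cluster 3 over cluster 2 (0.25). Spike-in scaling moved the median of all genes to 0.63 for cluster 3 over cluster 2 and 0.48 for cluster 3 over cluster 1. It reversed Ccnb2 (0.063) and Cdk1 (1.00) for cluster 3 over cluster 2 and Aurka (0.21) for cluster 3 over cluster 1, and turned the uncalled ratios of Cdc20 for cluster 3 over cluster 2 (0.41) and Ccnb1 for cluster 2 over cluster 1 (-0.072). With it, 6 genes were called higher (52.2% of all genes) and 1 lower (9.42%) for cluster 3 over cluster 2, and 2 lower (18.9%) for cluster 3 over cluster 1. With mean log2 values, 5 genes were higher for cluster 3 over cluster 2 (26.5% of all genes). The cause was not tested. Leaving out each cell in turn reversed no called ratio, changed the sign of 1 uncalled ratio, that of Ccnb1 for cluster 2 over cluster 1, and added 1 call, that of Cdc20 for cluster 3 over cluster 2 (-0.68 without the cell at 207 TPM). The share of cells with a gene at 1 TPM or more, in place of 0.1, fell outside the interval for Ccnb1 (77.9%), Ccnb3 (64.1%), Ccno (79.3%), Aurka (63.4%) and Cdc20 (80%), while each share after thinning stayed within it. The order of cells from 2000 variable genes turned no rho of 0.1 or more, but moved means of some bins by over 1.5 times, some of which are given above. No values with near-identical copies added could be had, because none of the 17 copies has a row in the files. No paired analysis was possible because all cells are of 1 group.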
